A study of Mus musculus with 30 samples.

Results

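Treadmill exercise was examined in cardiac myocytes of wild-type mice, by setting 5 libraries from exercised animals against 5 from animals with regular activity. These 10 libraries, of 30 in the whole series, were chosen from the labels alone: all are wild type and 6 months old, and the exercised mice are described as 3 months post endurance running on a treadmill, which does not say whether they ran during those 3 months. The other 20 libraries are wild type at 3 months and Myh6-Cre:DspW/F mice, for short heterozygotes, which carry a floxed desmoplakin (Dsp) allele and Cre driven by the cardiac Myh6 promoter, at 3 months and at 6 months with and without exercise. They entered the fit to estimate the spread, and exercise in heterozygotes is set beside exercise in the wild type below. The labels do not say whether wild-type mice carry Cre, how long after the last run the cells were taken, or whether the 5 replicates of a group are separate animals, so p-values measure only the spread between these libraries.

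Endurance training enlarges the healthy heart without the fetal gene programme of disease, and it is known to raise the mitochondrial capacity of muscle, in part through PGC-1α, the coactivator that Ppargc1a encodes. A heart myocyte lives mainly on fatty acids burnt in mitochondria, whose own small genome encodes a few core subunits of the respiratory chain while the nucleus encodes the rest. Immediate early genes, such as Fos and Junb, are switched on within minutes by growth factors, stretch and stress, and tissue dissociation is also known to induce them.

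The 2 groups differed as libraries before any single gene was considered. Total counts, in units of 10⁶, were 12.8 to 20.6 in exercised libraries and 18.8 to 23.1 in those with regular activity. The table also holds rows for 23 spike-in controls: none has a value in the exercised libraries, while 11 to 18 have one in the regular-activity libraries at 6 months, so these rows split the libraries into sets in the way exercise does, and library set and exercise cannot be told apart. Ribosomal RNA left after depletion took 5.31% ± 1.41 (SD, n = 5) of counts after exercise and 1.82% ± 0.488 without, with no overlap (exact two-sided permutation test, p = 0.00794, the smallest that 5 against 5 allows; 0.0159 after Benjamini-Hochberg adjustment over 6 library measures). This share includes mitochondrial ribosomal RNA, which also counts in the mitochondrial share given below, so these measures overlap. Exercised library 1 stood apart, with a median correlation of 0.949 with the rest of its group, against 0.961 to 0.969 for the others. The sexes were mixed: Xist, expressed from the inactive X, was at 129 and 135 counts per 10⁶ (CPM) in regular libraries 2 and 5 and at 201 in exercised library 5, and under 1.3 in the other 7. Dsp itself was at 683, 664, 636, 1021 and 916 CPM in regular libraries 1 to 5 and at 1312, 1907, 1778, 1881 and 928 in exercised libraries 1 to 5; in heterozygotes it was at 581 to 680 CPM without exercise, overlapping the wild type, and at 705 to 939 with it.

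**Figure D1:**
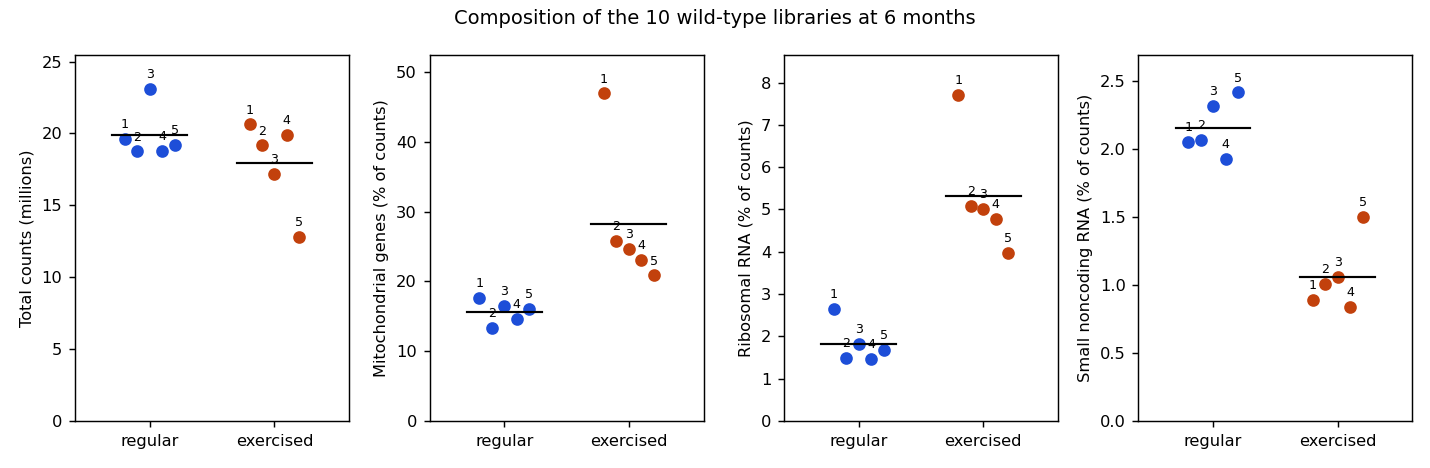
Library composition. Each point is 1 library, numbered by replicate, with the group mean as a bar; the y axes give total counts in units of 10⁶ and the percentage of counts from mitochondrial genes, ribosomal RNA and small noncoding RNA. Mitochondrial ribosomal RNA counts in both the mitochondrial and the ribosomal RNA share. Mitochondrial and ribosomal RNA shares of the 5 exercised libraries lie above those of all 5 regular libraries, small noncoding shares lie below, and exercised library 1 reaches 46.9% mitochondrial counts.

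Of 15587 genes tested with edgeR's quasi-likelihood test, 724 (4.64%) were called higher and 787 (5.05%) lower in exercised wild type, called meaning a Benjamini-Hochberg adjusted p under 0.05. Changes were mostly small: 125 of the higher and 88 of the lower genes differed by at least 2-fold. Groups did not overlap in 786 genes (5.04%) that were higher in all 5 exercised libraries and in 870 (5.58%) that were lower. In bulk RNA, fewer cells of a type and less RNA per cell cannot be told apart, and this applies to each result below. Calls were recomputed without regular libraries 2 and 5, which have high Xist (268 higher, 369 lower). They were also recomputed without exercised libraries 1 and 5 (600 higher, 469 lower), a pair chosen after seeing the data. A further fit had trends on gene length and GC content removed from each library, here called trend removal (514 higher, 448 lower). These fits are named below beside genes whose call they ended. Leaving out regular libraries 2 and 5 keeps exercised library 5, which also has high Xist, so it does not balance the sexes. With Xist as a covariate and all libraries kept, 745 genes were called higher and 836 lower. Of the genes named in this report, 2 lost their call in that fit.

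The list of immediate early genes held 32 tested genes, and all had a negative log2 fold change (log2 of exercised over regular, from -1.62 to -0.08). Their median was -0.71, against 0.006 over all tested genes, and 16 of them fell at the threshold (against 5.05% of all genes tested) while 0 rose. In 12 of the 32 the groups did not overlap, while 5.58% of all genes tested were lower without overlap. Junb had the largest change of the list. This partner in the AP-1 transcription factor was at 216, 305, 228, 178 and 246 CPM in regular libraries 1 to 5 and at 62.1, 64.4, 80.7, 62 and 111 in exercised libraries 1 to 5 (log2 fold change -1.62, SE 0.18, adjusted p = 1.45e-06). Each exercised library lay below the lowest regular one. Fosb, which pairs with Jun proteins, was at 57, 43.1, 39.4, 30.5 and 65 CPM without exercise and 16, 17.6, 12.8, 17.4 and 21.5 with it (log2 fold change -1.46, SE 0.35, adjusted p = 0.00802), again with no overlap. Fos was at 407, 626, 392, 295 and 600.1 CPM against 77.9, 216, 173, 170.5 and 328 (log2 fold change -1.27, SE 0.33, adjusted p = 0.0149), and here exercised library 5, at 328, lay above the lowest regular library. Jund had the smallest change of the called members, -0.47 (SE 0.15); its call was kept in 3 of 10 fits that each left out 1 library, with the highest adjusted p, 0.114, without regular library 3. Without regular libraries 2 and 5, 8 of the 32 were called lower, while calls over all genes also fell, to 369 lower in place of 787. Fos (log2 fold change -0.92, adjusted p = 0.171), Fosb (-1.31, adjusted p = 0.0609) and Jund were among those not called. Jund was at 0.04 after trend removal.

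Called members outside AP-1 included the following. Gadd45g, a stress sensor of MAP kinase signalling, was at 66.3, 85.9, 52.2, 56.7 and 72.7 CPM in regular and 11, 28.8, 20.2, 22.5 and 26.7 in exercised libraries (log2 fold change -1.61, SE 0.22, adjusted p = 2.57e-05). Zfp36 encodes tristetraprolin, which marks AU-rich mRNAs for decay, and was at 176, 343, 201, 173 and 263 CPM against 94.2, 81.8, 78.1, 58.5 and 98.8 (log2 fold change -1.49, SE 0.25, adjusted p = 3.63e-04). Neither gene's groups overlapped. Btg2, an antiproliferative gene, was at 465, 446, 385, 349 and 389.7 CPM against 108, 197, 197, 182 and 262 (log2 fold change -1.10, SE 0.19, adjusted p = 2.67e-04). Dusp1, the phosphatase that switches MAP kinases off, was at 396, 431, 383, 314 and 430.5 CPM against 172, 277, 235, 232 and 285 (log2 fold change -0.70, SE 0.18, adjusted p = 0.00891). The other called members, with log2 fold changes between -1.29 and -0.82, were Atf3, Klf2, Gadd45b, Ier5, Ier2, Nr4a1, Dusp5 and Cyr61, of which Nr4a1 was called in 9 of the 10 leave-one-out fits (highest adjusted p = 0.0534, without regular library 1). Dusp5 was called in 4 of the 10 leave-one-out fits (highest adjusted p = 0.0724, without regular library 1), and Cyr61 in 9 of the 10 leave-one-out fits (highest adjusted p = 0.0689, without regular library 2). Outside the list, Socs3, which dampens cytokine signalling through JAK and STAT, was at 28.3, 63.9, 28.8, 25.4 and 42 CPM against 14.2, 8.35, 11.6, 4 and 19.1 (log2 fold change -1.73, SE 0.42, adjusted p = 0.00907). Of these genes, Atf3, Ier2, Dusp1, Dusp5, Cyr61 and Socs3 were not called without regular libraries 2 and 5, Atf3, Dusp5 and Cyr61 without exercised libraries 1 and 5, and Ier2, Nr4a1, Dusp1, Dusp5 and Cyr61 after trend removal.

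Wild-type libraries at 3 months were not exercised and had values in 3 of the spike-in rows. They held Junb at 219 ± 41.2 CPM (SD, n = 5), Gadd45g at 69.7 ± 17.4 and Fos at 360 ± 127. These means lay within the ranges of the regular libraries given above, although the spread of Fos also reached exercised values. Age and library set differ here as well, so whether the exercised or the regular libraries had shifted was not tested. In heterozygotes the same comparison called 14 of the 32 lower and 0 higher (median -0.78; 3.48% of all genes were called lower there), with Junb at -1.55 (adjusted p = 1.87e-06). After trend removal, 10 of the 32 were called lower (2.88% of all genes), with a median of -0.52. How long before RNA isolation the last run took place, and whether cells were dissociated alike in the library sets, was not tested.

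Promoters of 3 of these genes are shown as examples, picked because all 3 were called lower and hold a cyclic AMP element or an E-box. The cyclic AMP element is known to respond to signalling. Windows are from RefSeq on GRCm38.p6 and run from 250 bases before to 50 after a transcription start; 25 of the 32 genes had at least 1 window. Capitals mark the cyclic AMP element TGACGTCA in Btg2 (chr1:134079106-134079405 (minus strand)) and Dusp1 (chr17:26508423-26508722 (minus strand)), and the E-box CACGTG in Gadd45g (chr13:51846425-51846724 (plus strand)), each searched on both strands; the Dusp1 window also holds an E-box, left in lower case.
Btg2: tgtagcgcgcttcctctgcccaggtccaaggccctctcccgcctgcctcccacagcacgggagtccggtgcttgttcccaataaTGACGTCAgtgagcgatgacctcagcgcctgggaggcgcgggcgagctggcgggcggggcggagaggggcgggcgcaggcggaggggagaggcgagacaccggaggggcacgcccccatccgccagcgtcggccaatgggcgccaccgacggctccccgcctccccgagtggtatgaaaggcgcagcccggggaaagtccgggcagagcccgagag
Dusp1: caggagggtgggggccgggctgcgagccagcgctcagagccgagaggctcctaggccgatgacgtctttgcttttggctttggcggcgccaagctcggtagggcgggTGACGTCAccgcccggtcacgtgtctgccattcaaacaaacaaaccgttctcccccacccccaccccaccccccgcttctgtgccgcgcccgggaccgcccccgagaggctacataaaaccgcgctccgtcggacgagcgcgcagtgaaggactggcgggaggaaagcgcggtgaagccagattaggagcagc
Gadd45g: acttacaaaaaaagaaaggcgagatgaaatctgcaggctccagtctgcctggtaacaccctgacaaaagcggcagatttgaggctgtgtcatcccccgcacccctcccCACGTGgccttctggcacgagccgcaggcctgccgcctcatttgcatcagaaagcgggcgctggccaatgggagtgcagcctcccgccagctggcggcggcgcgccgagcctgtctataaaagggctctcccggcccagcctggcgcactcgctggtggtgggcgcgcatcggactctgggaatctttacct
The element starts at position -166 from the transcription start in Btg2, at -143 in Dusp1 and at -142 in Gadd45g. The cyclic AMP element was in 3 of 31 windows of the list (9.68%), against 2.87% of 13610 windows of tested genes and 1.79% of all 32851 windows; the third belongs to Maff, which was not called. An E-box was in 8 of 31 (25.8%), against 9.76% and 7.15%. The AP-1 motif TGANTCA was in 0 of 31, against 5.26% and 7.81%. These are matches of letters, not measured binding sites.

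**Figure D2:**
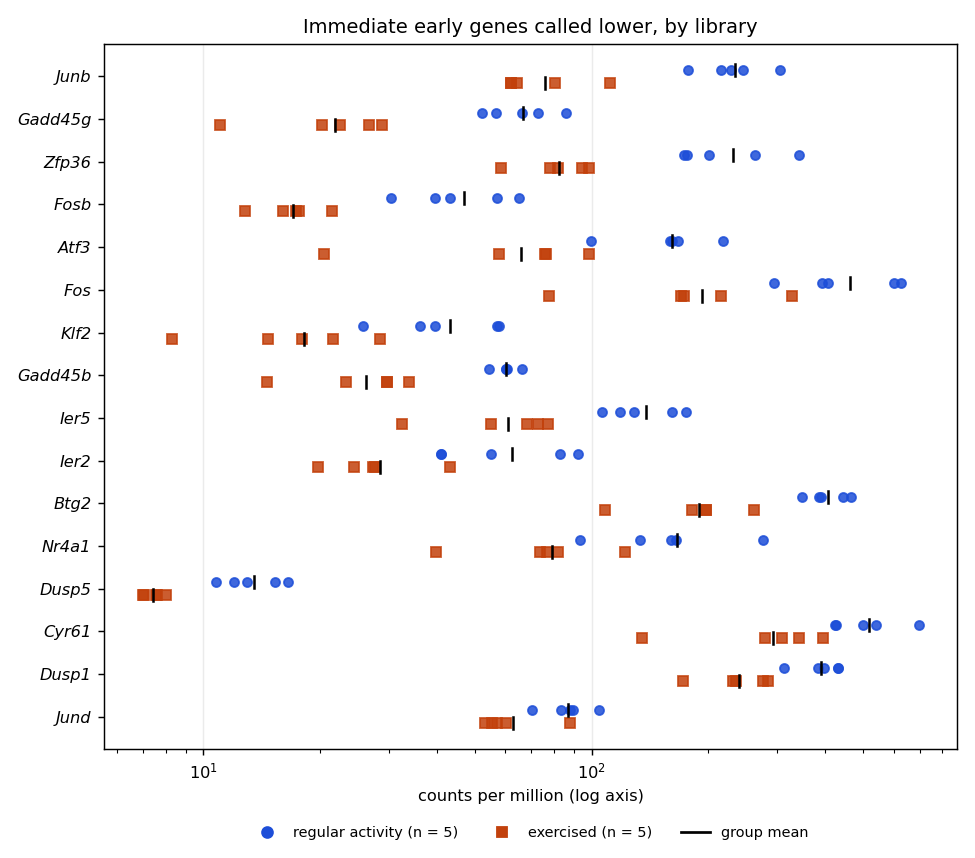
Immediate early genes. Each row is 1 of the 16 called genes, with regular libraries as blue circles, exercised libraries as orange squares and group means as black bars, on a log axis of CPM. For Junb the exercised libraries reach from 62.0 to 111 CPM and the regular ones from 178 to 305.

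Transcripts of the mitochondrial genome had the highest median of the lists examined. Of its 13 mRNAs, 12 rose (92.3%, against 4.64% of all genes), with a median log2 fold change of 1.87. Groups were apart in 11, while 5.04% of all genes tested were higher without overlap. As a share of all counts, mitochondrial genes took 17.6%, 13.3%, 16.5%, 14.6% and 16.1% in regular libraries 1 to 5 and 46.9%, 25.8%, 24.7%, 23.0% and 20.9% in exercised libraries 1 to 5. The means were 15.6% ± 1.68 and 28.3% ± 10.6 (SD, n = 5), and no exercised library overlapped the regular ones (exact two-sided permutation p = 0.00794, adjusted 0.0159). Exercised library 1 was the highest by far, and without it the difference of the means was 7.97 percentage points in place of 12.6.

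Members of the mitochondrial list differed widely in size of change. mt-Atp8, a small subunit of ATP synthase, was at 11.9, 4.58, 5.02, 5.14 and 7.36 CPM in regular and 251, 143, 60.7, 115 and 24.4 in exercised libraries (log2 fold change 4.13, SE 0.52, adjusted p = 2.32e-05). mt-Co2, a catalytic subunit of cytochrome c oxidase, was at 380.3, 245, 263, 267 and 267 CPM against 3258, 1282, 1108, 1149.9 and 1229 (log2 fold change 2.50, SE 0.33, adjusted p = 2.66e-05). mt-Nd5, of complex I, was at 3799.6, 2841, 2767, 2689 and 3247 CPM against 14283, 7984, 7050.4, 6450.4 and 5629 (log2 fold change 1.43, SE 0.23, adjusted p = 1.53e-04). In all 3 the lowest exercised library was above the highest regular one. The other called members ranged from 0.90 for mt-Co1 to 2.45 for mt-Atp6, with mt-Nd4l at 2.41, mt-Nd6 at 2.12, mt-Nd2 at 1.88, mt-Nd4 at 1.67, mt-Cytb at 1.62, mt-Nd1 at 1.27 and mt-Nd3 at 1.23. mt-Co1 was called in 5 of the 10 leave-one-out fits (highest adjusted p = 0.169, without exercised library 1), and mt-Nd3 in 5 of the 10 leave-one-out fits (highest adjusted p = 0.156, without exercised library 1). mt-Co3 did not pass (adjusted p = 0.0875); its exercised library 1 was at 19573 CPM and the other 4 at 1668 to 2577. The ribosomal RNA share moved in the same direction between the same libraries, but it includes mitochondrial ribosomal RNA, so the 2 shares overlap by definition. Both of the 2 mitochondrial ribosomal RNA genes tested were called higher (median log2 fold change 1.745). The 1 other ribosomal RNA gene tested was at 0.414 and was not called. The part of ribosomal RNA in these values was not tested. In heterozygotes 9 of the 13 were called higher (5.34% of all genes there), with a median of 1.18. Without regular libraries 2 and 5, and without exercised libraries 1 and 5, mt-Nd1, mt-Nd3 and mt-Co1 were not called, and trend removal ended the calls of mt-Nd3 and mt-Co1.

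Among 24 regulators of mitochondrial biogenesis, 5 rose (20.8%, against 4.64% of all genes) and 1 fell (4.17%, against 5.05%); the higher calls numbered 1 to 5 with 1 library left out and 2 after trend removal. Ppargc1a was at 169, 143, 102, 102 and 74.8 CPM in regular and 451, 204, 179, 175 and 206 in exercised libraries, a 2.05-fold difference (log2 fold change 1.04, SE 0.25, adjusted p = 0.00827). The groups did not overlap, although exercised library 4 at 175 CPM was close to regular library 1 at 169. Exercised library 1 was again the highest, and the gene was called in each of the 10 fits that left out 1 library (highest adjusted p = 0.0350, without that library). Esrra encodes ERRα, a nuclear receptor that PGC-1α coactivates, and went the other way, at 171, 184, 173, 199.5 and 159.8 CPM against 128, 128, 152, 116 and 123 (log2 fold change -0.46, SE 0.11, adjusted p = 0.00887). Smaller rises were called for Nrip1 (0.48 (SE 0.15)), Esrrg (0.41 (SE 0.13)), Twnk, the mitochondrial DNA helicase (0.36 (SE 0.12)), and Gabpa (0.31 (SE 0.10)). Each of these 4 lost its call when some libraries were left out: Nrip1 was called in 4 of the 10 leave-one-out fits (highest adjusted p = 0.128, without regular library 4), Esrrg in 3 of the 10 leave-one-out fits (highest adjusted p = 0.157, without exercised library 2), Twnk in 3 of the 10 leave-one-out fits (highest adjusted p = 0.161, without regular library 5), and Gabpa in 3 of the 10 leave-one-out fits (highest adjusted p = 0.128, without regular library 5). Ppargc1a was not called without regular libraries 2 and 5 (log2 fold change 0.96, adjusted p = 0.058) or without exercised libraries 1 and 5 (0.66, adjusted p = 0.0804), and Esrra was not called in the latter fit.

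Nuclear genes of the respiratory chain did not follow the mitochondrial ones. Of 37 nuclear complex I genes 1 rose (2.7%, against 4.64% of all genes) and 8 fell (21.6%, against 5.05%), and of 39 genes of complexes II to V 3 rose (7.69%) and 10 fell (25.6%). The medians were -0.06 and -0.16. Uqcrfs1, the Rieske iron-sulfur protein of complex III, was at 975, 974, 942, 1032 and 1009 CPM in regular and 446, 573, 575, 607 and 419 in exercised libraries (log2 fold change -0.91, SE 0.15, adjusted p = 1.27e-04). Atp5e, the epsilon subunit of ATP synthase, was at 215, 189, 163, 217 and 210 CPM against 113, 123, 115, 119 and 121 (log2 fold change -0.75, SE 0.12, adjusted p = 7.00e-05). Both were lower in every exercised library. Uqcrb, another complex III subunit, was higher in every one, at 197, 133, 138, 189 and 150.5 CPM against 277, 334, 300, 344 and 227 (log2 fold change 0.88, SE 0.16, adjusted p = 4.14e-04). Within complex I the smallest p-values were those of Ndufv1 at -0.53 (SE 0.11), Ndufa7 at -0.59 (SE 0.13) and Ndufs7 at -0.59 (SE 0.13). Without exercised libraries 1 and 5, 4 genes of complexes II to V were called lower in place of 10, and 469 of all genes in place of 787. Trend removal left 4 lower calls in complex I, without Ndufv1 and Ndufs7.

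Fatty acid use changed gene by gene. Of 36 genes of uptake and oxidation 2 rose (5.56%, near the 4.64% of all genes) and 7 fell (19.4%, against 5.05%; 4 after trend removal), with a median of -0.26. Acadl, which starts the oxidation of long chains, was at 215, 185, 194, 213 and 151 CPM in regular and 257, 333, 338, 321 and 321 in exercised libraries (log2 fold change 0.71, SE 0.10, adjusted p = 2.32e-05). Lpl, the lipase that frees fatty acids from lipoproteins, was at 2723, 3081, 3056, 2515 and 2445 CPM against 3429, 3887, 3702, 4308 and 4035 (log2 fold change 0.49, SE 0.12, adjusted p = 0.00628). Both were higher without overlap. Hadhb, a subunit of the trifunctional protein, was at 1996, 1639.8, 1499, 1719 and 1683 CPM against 893, 1302, 1177, 1245 and 1047 (log2 fold change -0.59, SE 0.14, adjusted p = 0.00558), and Acads, the short-chain dehydrogenase, at 269, 249, 271, 304 and 250.5 against 123, 193, 205, 192 and 132 (log2 fold change -0.67, SE 0.16, adjusted p = 0.00581). Hadh had the largest fall, -1.23 (SE 0.32), with exercised library 2 inside the regular range. Plin5, which coats lipid droplets, was at 184, 155, 140.4, 221 and 146 CPM against 107, 101, 104, 97.6 and 77 (log2 fold change -0.80, SE 0.20, adjusted p = 0.00997). Neither Hadh nor Plin5 was fixed by the naming rule; they were picked after their values were seen. Pdk4, which shuts pyruvate out of oxidation when fat is plentiful, was at 371 ± 134 CPM (SD, n = 5) against 345 ± 109 and did not pass (adjusted p = 0.94). Of 21 TCA cycle genes 1 rose (4.76%, near the 4.64% of all genes) and 0 fell. Of 20 genes of branched-chain amino acid and ketone use 0 passed in either direction by edgeR (4 at an unadjusted p under 0.05), 3 by limma-voom and 1 by DESeq2. Over all 15587 genes limma-voom called 1406 higher and 1363 lower, and DESeq2 1011 and 884. Hadh, Hadhb, Acads and Plin5 were not called without exercised libraries 1 and 5, nor Lpl, Acads and Plin5 after trend removal.

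The energy sensor AMPK and creatine kinase gave mixed values. Prkaa1 and Prkaa2, its catalytic subunits, rose by 0.40 (SE 0.12) and 0.38 (SE 0.10), and Prkag1, a regulatory subunit, changed by -0.63 (SE 0.11). Prkaa1 was called in 8 of the 10 leave-one-out fits (highest adjusted p = 0.0595, without exercised library 5), and Prkaa2 in 9 of the 10 leave-one-out fits (highest adjusted p = 0.0584, without exercised library 2). Ckb, brain-type creatine kinase, changed by -0.87 (SE 0.13) (adjusted p = 3.13e-05). In all, 3 of 18 genes of this list rose (16.7%, against 4.64% of all genes) and 3 fell (16.7%, against 5.05%). Both Prkaa1 and Prkaa2 lost their calls without regular libraries 2 and 5 and after trend removal, and Prkaa1 also without exercised libraries 1 and 5.

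**Figure D3:**
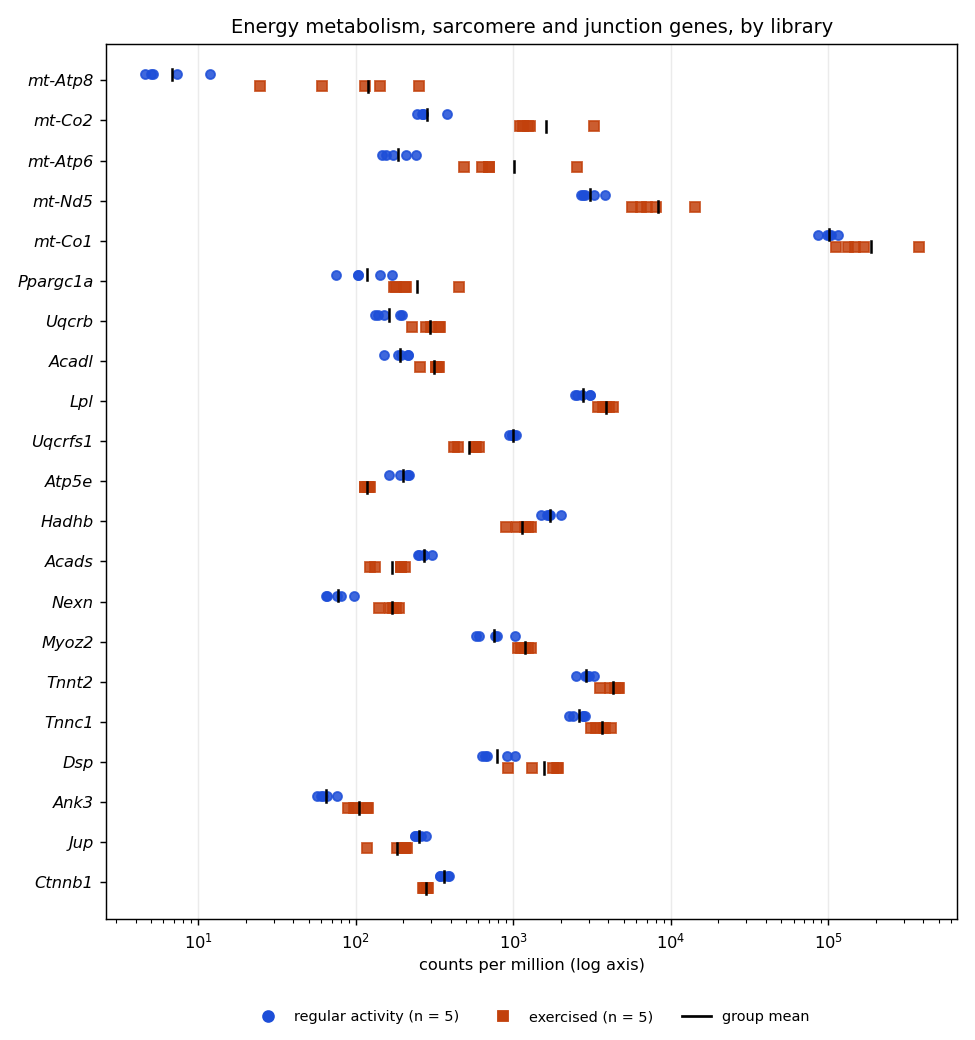
Energy, sarcomere and junction genes by library. Rows are genes, blue circles the 5 regular libraries, orange squares the 5 exercised libraries and black bars group means, on a log axis of CPM. mt-Co2 lies at 245 to 380 CPM without and 1108 to 3258 with exercise, while Uqcrfs1 lies at 942 to 1032 and 419 to 607.

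Genes of the sarcomere were mostly higher. Of 30 tested, 24 had a positive log2 fold change (median 0.26), 11 rose (36.7%, against 4.64% of all genes) and 2 fell (6.67%, near 5.05%). Nexn encodes nexilin, an actin-binding protein of the Z disc and the junctional membrane, and was at 97.1, 80.6, 65.7, 64.3 and 76.1 CPM in regular and 140.4, 173, 188, 166 and 180.1 in exercised libraries, a 2.21-fold difference (log2 fold change 1.14, SE 0.18, adjusted p = 9.27e-05). Myoz2, a calcineurin-binding Z-disc protein, was at 761, 600.1, 579.9, 1028 and 788 CPM against 1188, 1243, 1294, 1067 and 1112 (log2 fold change 0.65, SE 0.13, adjusted p = 0.00126). Both genes were higher without overlap. Thin filament troponins rose too, Tnnt2 being at 3264, 3018, 2506, 2826 and 2927 CPM in regular and 3525, 4411, 4671, 4642 and 4127 in exercised libraries (log2 fold change 0.56, SE 0.11, adjusted p = 0.0013) and Tnnc1 at 2861, 2405, 2250.3, 2764 and 2779.9 against 3108, 3831, 4184, 3706 and 3336 (log2 fold change 0.48, SE 0.13, adjusted p = 0.0178). Tnnc1 was called in 8 of the 10 leave-one-out fits (highest adjusted p = 0.0565, without regular library 3). Other higher members included Cmya5, myospryn (0.58 (SE 0.12)), and Ttn, the giant spring protein (0.47 (SE 0.16)); Ttn was called in 4 of the 10 leave-one-out fits (highest adjusted p = 0.18, without exercised library 2), and with length and GC trends removed its value was -0.05. Obsl1, an obscurin-like linker, fell, at 88.6, 105, 94.5, 84.2 and 98.6 CPM against 53.4, 70.7, 67.5, 66.4 and 61 (log2 fold change -0.56, SE 0.11, adjusted p = 7.21e-04), and so did Unc45b, the myosin chaperone (-0.39 (SE 0.13)), which was called in 3 of the 10 leave-one-out fits (highest adjusted p = 0.159, without exercised library 1). Without exercised library 3 the list had 7 higher calls in place of 11, and without regular libraries 2 and 5 it had 4. Over all genes 554 and 268 were called higher in these fits, in place of 724. Mylk4, a myosin light chain kinase outside the list, was at 36.2, 43.4, 32.8, 57.4 and 49.8 CPM against 78.7, 122, 87.3, 118 and 60.9 (log2 fold change 1.09, SE 0.29, adjusted p = 0.018), and was called in 8 of the 10 leave-one-out fits (highest adjusted p = 0.0527, without regular library 3). Heterozygotes had 10 of the 30 called higher and 1 lower, against 5.34% and 3.48% of all genes there. In the fit without those 2 regular libraries Mylk4, Tnnc1, Ttn and Unc45b were not called, after trend removal Mylk4, Obsl1, Ttn and Unc45b were not, and without exercised libraries 1 and 5 Unc45b was not.

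At the intercalated disc 5 of 27 genes rose (18.5%, against 4.64% of all genes) and 2 fell (7.41%, near the 5.05% of all genes). Dsp, the desmosomal plakin whose level in each library is given above, rose 1.99-fold (log2 fold change 0.99, SE 0.19, adjusted p = 0.00106), and exercised library 5 at 928 CPM fell within the regular range. Ank3, ankyrin-G, which places sodium channels at the disc, was at 60.4, 75.9, 56.9, 65.8 and 61.5 CPM against 96.8, 119, 89.2, 117 and 100.5 (log2 fold change 0.71, SE 0.10, adjusted p = 2.57e-05). Ank2 (0.49 (SE 0.12)), Tjp1, which encodes ZO-1 (0.42 (SE 0.12)), and Cdh2, N-cadherin (0.41 (SE 0.10)), were the others that rose; Tjp1 was called in 7 of the 10 leave-one-out fits (highest adjusted p = 0.111, without exercised library 1). The 2 genes that fell were Jup and Ctnnb1: Jup, plakoglobin, was at 237, 280, 249, 259 and 236 CPM against 182, 117, 210.1, 203 and 205 (log2 fold change -0.46, SE 0.11, adjusted p = 0.00732), and Ctnnb1, β-catenin, at 388, 386, 364, 344 and 341 against 287, 266, 283, 282 and 269 (log2 fold change -0.39, SE 0.081, adjusted p = 0.00172). Pkp2, plakophilin-2, had groups that did not overlap but did not pass (log2 fold change -0.40, SE 0.14, adjusted p = 0.0593). Gja1, the gap junction protein connexin 43, was at 489 ± 75.8 CPM (SD, n = 5) against 449 ± 124 (adjusted p = 0.858). In heterozygotes, Dsp changed by 0.44 (adjusted p = 0.162); the difference between the genotypes did not pass. Jup was not called without regular libraries 2 and 5 (log2 fold change -0.44, adjusted p = 0.0508) or after trend removal (-0.27, adjusted p = 0.141). Tjp1 lost its call in these fits and without exercised libraries 1 and 5, and Ank2 after trend removal.

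Calcium handling had 5 of 29 genes higher (17.2%, against 4.64% of all genes; 1 to 5 with 1 library left out) and 0 lower (against 5.05%) by edgeR. The smallest p-values were those of Atp2b1, the plasma membrane calcium pump (0.41 (SE 0.083)), Trdn, triadin of the calcium release unit (0.49 (SE 0.13)), and Hrc, a calcium-binding protein of the sarcoplasmic reticulum (0.64 (SE 0.18)). Trdn was called in 8 of the 10 leave-one-out fits (highest adjusted p = 0.0547, without regular library 3), and Hrc in 6 of the 10 leave-one-out fits (highest adjusted p = 0.0643, without exercised library 4). Adrenergic signalling had 2 of 31 genes higher (6.45%, near the 4.64% of all genes) and 4 lower (12.9%, against 5.05%). Adrb1, the main β-adrenergic receptor of the heart, was at 24.8, 30.2, 28.9, 22.1 and 33.1 CPM in regular and 14, 14.9, 15.9, 12.8 and 19.3 in exercised libraries (log2 fold change -0.86, SE 0.16, adjusted p = 6.76e-04), lower in all 5 without overlap. Adra1b, an α1 receptor (-0.66 (SE 0.16)), and Pde3b, a cyclic nucleotide phosphodiesterase (-0.88 (SE 0.24)), fell as well; Pde3b was called in 9 of the 10 leave-one-out fits (highest adjusted p = 0.0575, without regular library 1). Trdn, Hrc and Pde3b were not called without regular libraries 2 and 5, Pde3b without exercised libraries 1 and 5, and Atp2b1, Trdn and Adra1b after trend removal.

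Genes linked to the growth of the trained heart were looked at by name. Cebpb and Cited4 are known as a pair in which exercise lowers the first and raises the second. Cebpb was at 57, 140.3, 80.7, 87.6 and 119 CPM in regular and 56.7, 26.7, 45.1, 33.4 and 33.5 in exercised libraries (log2 fold change -1.31, SE 0.39, adjusted p = 0.0334), and was called in 3 of the 10 leave-one-out fits (highest adjusted p = 0.0916, without regular library 2). Cited4 was at 28.4, 24.9, 29.6, 40.3 and 37.9 CPM against 14.7, 22.3, 15.5, 17.6 and 9.85 (log2 fold change -1.01, SE 0.24, adjusted p = 0.00794), so both were lower here. Neither was called after trend removal (Cebpb at -0.81, adjusted p = 0.197; Cited4 at -0.56, adjusted p = 0.174) or without exercised libraries 1 and 5, and Cebpb was not called without regular libraries 2 and 5. Gsk3b, a kinase that restrains growth, was at 71.4, 75, 72.7, 63.8 and 53.5 CPM against 101, 107, 93.4, 99 and 92.9 (log2 fold change 0.55, SE 0.10, adjusted p = 4.01e-04). Nkx2-5, a cardiac transcription factor, changed by -0.42 (SE 0.11); it was called in 8 of the 10 leave-one-out fits (highest adjusted p = 0.0683, without regular library 4), and its value was 0.09 with length and GC trends removed. Nkx2-5 was also not called without either pair of libraries. Igf1r, the IGF-1 receptor, at 0.30 (SE 0.22), and Vegfa, at -0.23 (SE 0.14), did not pass.

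The fetal and wall stress programme had few calls: 1 of 27 genes rose (3.7%, against 4.64% of all genes), 2 fell (7.41%, against 5.05%), and the median was 0.03. Nppa was at 11.1, 22.9, 109, 16.1 and 69.1 CPM in regular and 49.5, 34.6, 39.7, 18.3 and 82.2 in exercised libraries (adjusted p = 0.991). Nppb was at 286 ± 105 CPM (SD, n = 5) against 249.8 ± 107 (adjusted p = 0.842). Neither natriuretic peptide's groups separated, and the SE of the Nppa change, 0.95, leaves room for a 2-fold change in either direction. Adult Myh6 (0.32 (SE 0.17)), fetal Myh7 (-0.23 (SE 0.57)) and skeletal actin Acta1 (0.03 (SE 0.63)) did not pass either. Those that did were Mef2c, a muscle transcription factor (0.64 (SE 0.12)), Fhl2, a LIM protein of the sarcomere (-0.64 (SE 0.11)), and Ankrd23 (-1.002 (SE 0.30)), the last called in 5 of the 10 leave-one-out fits (highest adjusted p = 0.1, without regular library 1). Ankrd23 lost its call without either pair of libraries, and both Ankrd23 and Mef2c after trend removal.

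**Figure D4:**
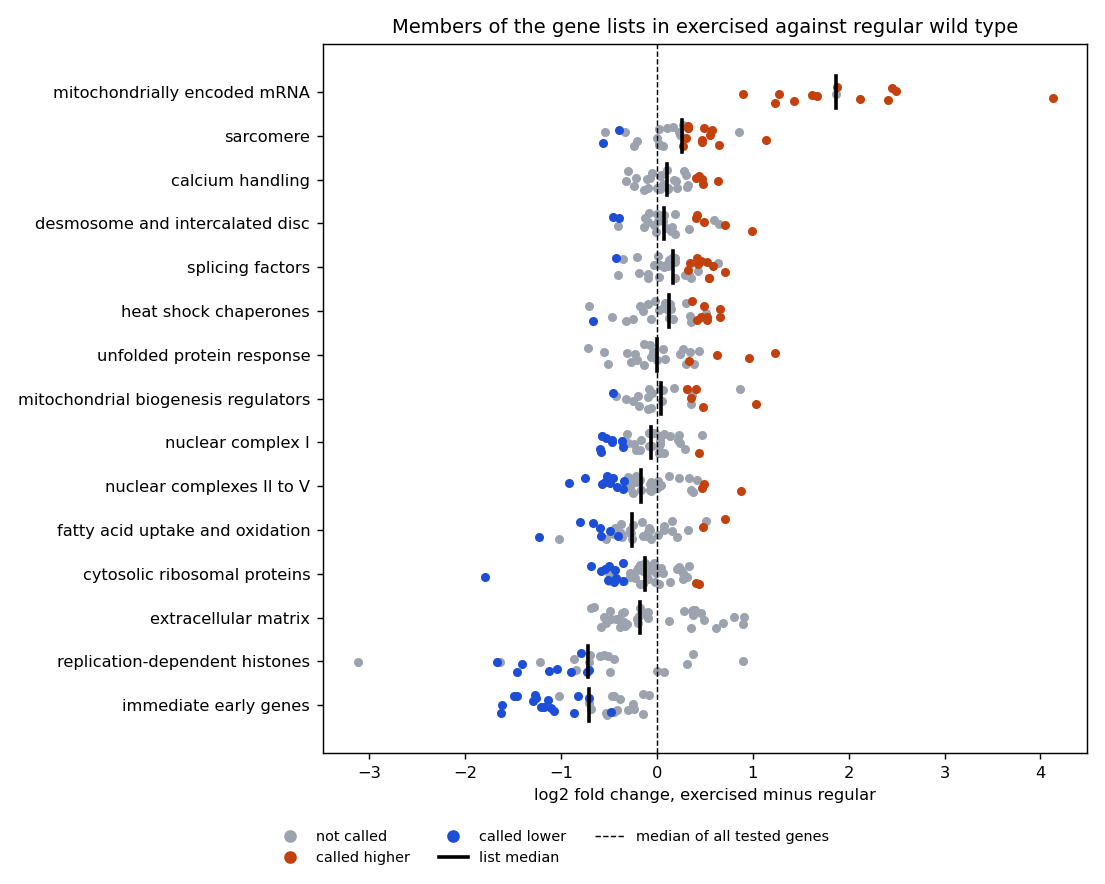
Gene lists. Each point is 1 tested member at its log2 fold change, exercised minus regular, in orange where called higher, blue where called lower and grey where not called; black bars are list medians and the dashed line is the median of all 15587 genes. The mitochondrially encoded mRNAs lie to the right, with a median of 1.87, and the immediate early genes to the left, with a median of -0.71.

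Protein folding genes were in part higher. Of 30 heat shock chaperone genes 8 rose (26.7%, against 4.64% of all genes) and 1 fell (3.33%, against 5.05%), and of 25 genes of the unfolded protein response 4 rose (16%) and 0 fell. Pdia3, a disulfide isomerase of the endoplasmic reticulum, was at 21.5, 18, 16.7, 18.3 and 15.1 CPM in regular and 52.5, 30.9, 47, 35.3 and 45.1 in exercised libraries (log2 fold change 1.23, SE 0.18, adjusted p = 4.18e-05). Dnajb9, which serves the chaperone BiP, was at 21.4, 19.7, 18.9, 22.3 and 16.4 CPM against 26, 47.8, 48, 38 and 33 (log2 fold change 0.96, SE 0.16, adjusted p = 1.47e-04). Both were higher in every exercised library. Calr, calreticulin, changed by 0.63 (SE 0.17) and was called in 9 of the 10 leave-one-out fits (highest adjusted p = 0.0527, without regular library 3). Hspe1 and Hspd1 encode the mitochondrial chaperonin pair; Hspe1 was at 42.5, 32.1, 30.9, 54.5 and 50.1 CPM against 67.5, 66.3, 66.2, 68 and 63.5 (log2 fold change 0.66, SE 0.15, adjusted p = 0.00541), and Hspd1 changed by 0.37 (SE 0.12). Hsph1 (0.66 (SE 0.20)), Chordc1 (0.47 (SE 0.13)) and Hsp90ab1 (0.42 (SE 0.12)) were also called. Hspb1, a small heat shock protein, fell, at 573, 599, 551, 495 and 662 CPM against 309.7, 363, 441, 329 and 371 (log2 fold change -0.67, SE 0.12, adjusted p = 5.85e-04). The chaperone calls were fragile: 2 were higher without exercised library 3, 2 without regular library 3, 3 without regular library 2 and 4 without exercised library 2. Over all genes 554, 501, 560 and 572 were called higher in these fits, in place of 724. In heterozygotes 1 of the 30 was called higher and 5 lower, against 5.34% and 3.48% of all genes there. Hsph1, Hspd1, Chordc1 and Hsp90ab1 were not called without regular libraries 2 and 5, Chordc1 and Calr without exercised libraries 1 and 5, and Hspb1, Hsph1 and Chordc1 after trend removal.

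The promoters of Hspe1 and Chordc1 are shown because both genes were called higher and hold the heat shock element, here 3 alternating GAA and TTC units with 2 bases between neighbours, in capitals. Hspe1 (chr1:55087898-55088197 (plus strand)) is read divergently from Hspd1, and Chordc1 lies at chr9:18292017-18292316 (plus strand).
Hspe1: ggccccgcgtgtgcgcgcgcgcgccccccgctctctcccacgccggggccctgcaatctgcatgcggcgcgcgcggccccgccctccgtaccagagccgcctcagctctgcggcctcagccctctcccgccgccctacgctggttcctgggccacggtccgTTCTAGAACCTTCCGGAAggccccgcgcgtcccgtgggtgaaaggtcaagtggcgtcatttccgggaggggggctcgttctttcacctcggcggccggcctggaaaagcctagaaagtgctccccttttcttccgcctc
Chordc1: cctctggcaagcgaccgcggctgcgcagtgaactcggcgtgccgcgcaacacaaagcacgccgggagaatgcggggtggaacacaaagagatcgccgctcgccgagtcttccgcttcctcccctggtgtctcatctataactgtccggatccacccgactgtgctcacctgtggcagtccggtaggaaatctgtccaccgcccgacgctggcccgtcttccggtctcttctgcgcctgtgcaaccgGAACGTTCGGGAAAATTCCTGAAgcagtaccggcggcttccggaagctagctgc
The capitals cover overlapping matches on both strands. The element was in 5 of 32 windows of the chaperone list (15.6%), against 0.492% of windows of tested genes, and in 9 of 616 windows of genes called higher (1.46%) and 5 of 751 of genes called lower (0.666%).

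Translation and RNA processing genes split. Of 54 cytosolic ribosomal protein genes 2 rose and 11 fell (20.4%, against 5.05%), led by Rplp1 of the ribosomal stalk at 308, 318, 282, 607 and 615 CPM against 139, 126, 129.7, 106 and 114 (log2 fold change -1.79, SE 0.23, adjusted p = 1.45e-05). Regular libraries 4 and 5 were the high ones, and the exercised libraries were all below the lowest regular one. Rpl13 followed at -0.68 (SE 0.11). In heterozygotes 26 of the 54 were called lower and 0 higher, against 3.48% and 5.34% of all genes there. Eif5b, a factor that joins the ribosomal subunits, was at 15.6, 13.1, 12.1, 11.6 and 12 CPM against 30.8, 32.2, 34.3, 25.9 and 26.1 (log2 fold change 1.21, SE 0.18, adjusted p = 3.77e-05). Of 36 splicing factors 10 rose (27.8%, against 4.64% of all genes) and 1 fell (2.78%, against 5.05%). Those that rose included Luc7l3 (0.71 (SE 0.15)), Rbm25 (0.59 (SE 0.13)) and Qk, which controls splicing in muscle (0.55 (SE 0.090)). Srsf2 fell (-0.42 (SE 0.11)). After trend removal, 3 splicing factors were called higher and 2 lower (3.3% and 2.88% of all genes), and the list's median went from 0.17 to 0.02. Rbm25 and Qk lost their calls then, and Rbm25 and Srsf2 did without regular libraries 2 and 5. Nsrp1, a nuclear speckle splicing protein outside the list, was at 2.87, 2.19, 2.59, 2.19 and 3 CPM against 5.48, 4.15, 6.22, 6.55 and 7.71 (log2 fold change 1.23, SE 0.28, adjusted p = 0.00408). Zc3h13, part of the complex that methylates adenosines in mRNA, was at 13.4, 12.7, 14.2, 8.6 and 10.8 CPM against 24.4, 28.8, 29.4, 25.1 and 26.4 (log2 fold change 1.17, SE 0.14, adjusted p = 3.05e-06), higher in all 5 without overlap.

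Histone mRNAs and some nuclear RNAs, which lack a poly(A) tail, were lower. Of 26 replication-dependent histone genes 9 fell (34.6%, against 5.05% of all genes) and 0 rose (against 4.64%), with a median of -0.72. Hist1h3e was at 7.65, 11.3, 10.3, 10.2 and 14.9 CPM in regular and 3.82, 2.9, 4.57, 3.46 and 2.37 in exercised libraries (log2 fold change -1.66, SE 0.25, adjusted p = 4.18e-05). Hist1h1c, a linker histone, was at 69.1, 93.9, 87.2, 89.4 and 89.5 CPM against 39.9, 36.9, 38.8, 46.7 and 47 (log2 fold change -1.03, SE 0.16, adjusted p = 7.77e-05), and Hist1h4c at 15.8, 16.2, 18.5, 16.2 and 29.3 against 8.61, 4.97, 6.29, 4.9 and 11.6 (log2 fold change -1.41, SE 0.25, adjusted p = 4.24e-04). In each of the 3 the groups did not overlap. Among 21 nuclear and small RNAs 5 fell (23.8%, against 5.05% of all genes) and 0 rose. Rn7sk, which holds the elongation factor P-TEFb inactive, was at 10179, 9710.3, 8940.2, 9519 and 11694 CPM against 4395, 4456, 4367, 3727 and 5396 (log2 fold change -1.16, SE 0.12, adjusted p = 1.74e-07), and Scarna13, a guide RNA of Cajal bodies, at 61.6, 59.3, 50.6, 62.7 and 76.9 against 28.2, 26, 28.8, 26.4 and 27.5 (log2 fold change -1.18, SE 0.14, adjusted p = 4.62e-06). Rn7sk was at 15511 ± 1472 CPM (SD, n = 5) in wild type at 3 months. Small noncoding RNA as a whole took 1.06% ± 0.260 of counts after exercise and 2.15% ± 0.203 without (exact permutation p = 0.00794, adjusted 0.0159). Rn7sk alone held 0.388% of the summed counts of the exercised and 1.06% of those of the regular libraries. For other small RNAs the median log2 fold change was 0.35 over 65 snoRNA genes (0 higher, 3 lower) and 0.28 over 41 snRNA genes (3 higher, 1 lower). Over all genes 4.64% were called higher and 5.05% lower, and no difference from those shares is claimed.

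The signal recognition particle RNA was higher. Rn7s2 had the largest change of the called genes under the naming rule, which leaves out provisional, pseudogene and mitochondrial names, and was at 104, 89.8, 66.7, 108 and 105 CPM in regular and 474, 497, 554, 309.9 and 414 in exercised libraries, a 4.75-fold difference (log2 fold change 2.25, SE 0.26, adjusted p = 5.37e-06). Rn7s1, a near-identical copy that can share its reads, was at 54.2, 59.8, 50.4, 85.7 and 46.9 CPM against 251, 188, 163, 118 and 188 (log2 fold change 1.61, SE 0.47, adjusted p = 0.0284) and was called in 5 of the 10 leave-one-out fits (highest adjusted p = 0.0705, without regular library 5), and not without either regular libraries 2 and 5 or exercised libraries 1 and 5. At 3 months, without exercise, wild type held Rn7s2 at 688 ± 331 CPM (SD, n = 5), above both 6-month groups, so its level differed more between the unexercised groups of 3 and 6 months than between the exercised and regular groups. In heterozygotes Rn7s2 changed by 2.43 (adjusted p = 1.78e-06).

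Processed pseudogenes, copies of mRNAs inserted in the genome, gave 57 of the 724 higher genes. Of 383 tested, 57 were higher (14.9%, against 4.64% of all genes) and 2 lower (0.522%). A search against annotated coding transcripts gave each of the 57 a closest coding gene with at least 90% identity over at least 100 bases, 49 coding genes in all, of which 18 encode ribosomal proteins. Of those 49, 5 were called higher, 2 lower and 42 neither, with a median log2 fold change of -0.04. Gm13394 is an example, chosen after its values were seen: it is 99.9% identical to Gapdh over 1000 bases, and was at 6.14, 6.76, 10.3, 5.65 and 2.76 CPM in regular and 60.3, 56, 62.8, 44.5 and 39.9 in exercised libraries (log2 fold change 3.05, SE 0.26, adjusted p = 4.46e-08), while Gapdh, the glycolytic enzyme, changed by 0.33 (adjusted p = 0.373). Gapdh had 141709 counts over the exercised libraries and Gm13394 4161. Other Gapdh copies differed: Gm12070 (log2 fold change 1.493), Gm12537 (1.169) and Gm2451 (1.811) were also called higher. Gm7336, 99.8% identical over 1232 bases, was called lower (-2.059), with 6392 counts over the regular and 1162 over the exercised libraries. Gm5559, with 25877 and 35007 counts, was not called (0.85), nor were the remaining Gapdh copies. Gm13841, 99.4% identical to Rpl29, changed by 2.62 (SE 0.78) and was called in 4 of the 10 leave-one-out fits (highest adjusted p = 0.0809, without regular library 4). Rpl29 itself went the other way in value, at -1.61 (adjusted p = 0.316), with 14156 counts over the regular and 3520 over the exercised libraries. Neither fit without a pair of libraries called Gm13841. Reads of a pseudogene and of its parent can be exchanged in alignment, so these values are uncertain, and whether reads were assigned alike in the library sets was not tested.

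Further genes of large change under the naming rule belong to no list above. Ube2k, a ubiquitin-conjugating enzyme, was at 19.6, 16.9, 18.1, 14.9 and 16.8 CPM in regular and 46, 30.4, 32.5, 29.9 and 38.6 in exercised libraries (log2 fold change 1.04, SE 0.15, adjusted p = 2.46e-05). Atp8a2, a lipid flippase, was at 5.48 ± 1.3 CPM (SD, n = 5) against 11.2 ± 3.53 (log2 fold change 1.04, SE 0.28, adjusted p = 0.0137), and Thsd7a at 4.29 ± 0.822 against 9.72 ± 3.84 (log2 fold change 1.18, SE 0.29, adjusted p = 0.00794); exercised library 5 lay in the regular range for both. Gcnt1, a glycosyltransferase of O-glycans, was at 5.83, 3.73, 14.3, 2.75 and 2.37 CPM against 12.3, 19.4, 32.1, 26.3 and 29.2 (log2 fold change 2.03, SE 0.61, adjusted p = 0.0347) and was called in 3 of the 10 leave-one-out fits (highest adjusted p = 0.091, without regular library 5). On the lower side, Slc41a3, a magnesium transporter, was at 173, 158, 219.7, 205 and 136 CPM against 69.4, 43.1, 78.4, 42.3 and 53.3 (log2 fold change -1.64, SE 0.24, adjusted p = 9.27e-05). Srprb, a subunit of the signal recognition particle receptor, was at 29.4, 26.6, 23.9, 39.3 and 35.6 CPM against 5.9, 8.65, 9.21, 14 and 23 (log2 fold change -1.35, SE 0.25, adjusted p = 7.75e-04). Emilin2, an extracellular matrix glycoprotein, was at 28.1, 29.8, 37.6, 24.5 and 55.2 CPM against 4.51, 21.7, 4.26, 7.83 and 7.94 (log2 fold change -1.91, SE 0.50, adjusted p = 0.0141), all exercised libraries lying below the lowest regular one. Ndrg4, which is known from myocyte growth, was at 426, 466, 229, 432 and 295 CPM against 161, 57, 62.9, 247 and 134 (log2 fold change -1.48, SE 0.34, adjusted p = 0.00622), with exercised library 4 inside the regular range. Gcnt1, Thsd7a, Atp8a2 and Emilin2 were not called without regular libraries 2 and 5, Gcnt1 and Emilin2 without exercised libraries 1 and 5, and Gcnt1, Thsd7a and Atp8a2 after trend removal.

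Some lists had no called member by edgeR, where 4.64% of all genes were called higher and 5.05% lower. Lists carry no test of their own, so no difference from those shares is claimed. Extracellular matrix genes had 0 of 38 called, 24 of them with a negative value (median -0.18), interferon genes 0 of 30, 19 of them negative (median -0.20), and clock genes 0 of 24, 13 of them negative (median -0.006). At an unadjusted p under 0.05 the edgeR test had 5, 2 and 4 members of these 3 lists, limma-voom called 12, 2 and 3, and DESeq2 called 0, 1 and 1. Over all 15587 genes limma-voom called more than edgeR, 1406 higher and 1363 lower, and DESeq2 called 1011 and 884. Autophagy had 5 of 30 lower (16.7%) and 0 higher, with Map1lc3a, which encodes LC3A, at -0.53 (SE 0.10), Gabarapl2 at -0.68 (SE 0.15) and Atg7 at -0.63 (SE 0.15). Map1lc3a was not called after trend removal.

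Markers of other heart cells were low beside those of myocytes, whose 21 ventricular markers summed to 106421 to 129158 CPM in regular and 104495 to 146517 in exercised libraries. The 20 endothelial markers summed to 750.4 to 1082 CPM without and 596 to 2733 with exercise, and 0 of 20 were called; exercised library 1 was the high one, with Fabp4 at 457 CPM against 104 to 136 in the other exercised libraries and Pecam1 at 346 against 63.9 to 83.9. The matrix gene Timp3, also expressed by vessel cells, was at 335 CPM there against 69.7 to 83.3. The 12 pericyte and smooth muscle markers tested summed to 993 to 1355 and 982 to 1799 CPM. The 16 fibroblast markers tested summed to 447 to 604 and 212 to 808, and the 13 macrophage markers tested to 20.6 to 38.3 and 14.2 to 66.5. Of the fibroblast markers 1 of 16 tested was called, Fbln1, at 39.2, 86.4, 55.6, 24.9 and 57.1 CPM against 15.6, 15.8, 12.7, 22.2 and 30.1 (log2 fold change -1.45, SE 0.33, adjusted p = 0.00519). Of the pericyte and macrophage markers 0 were called. The 9 adipocyte markers tested summed to 2561 to 3225 CPM without and 3888 to 4468 with exercise, nearly all from Lpl, which myocytes also express. Scd1, a fatty acid desaturase, was the other called member (log2 fold change 1.79, SE 0.54, adjusted p = 0.0347). It was called in 3 of the 10 leave-one-out fits (highest adjusted p = 0.0898, without exercised library 5). Without regular libraries 2 and 5 neither Fbln1 nor Scd1 was called, Scd1 was not without exercised libraries 1 and 5, and Lpl was not after trend removal. The median of the 9 adipocyte markers tested was 1.79, and all 9 had a positive value. In heterozygotes the median of these markers was -0.186. The part of these cells in the results above was not tested.

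Called genes differed in sequence make-up. Protein-coding genes called higher had a median exon length of 6680 bases and a median GC content of 44.8%, those called lower 3227 bases and 54.8%, and those not called 4572 bases and 49.9%. Of genes under 42% GC, 12.7% were called higher and 1.06% lower, and of genes at 58% GC or more, 0.15% higher and 15.3% lower. The median log2 fold change went from 0.22 in the lowest to -0.27 in the highest GC class. Among genes with exons of 8000 bases or more 10.2% were higher and 1.75% lower. With these trends removed, 514 genes (3.3%) were called higher and 448 (2.88%) lower in place of 724 and 787; whether they come from library preparation or from the animals was not tested.

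**Figure D5:**
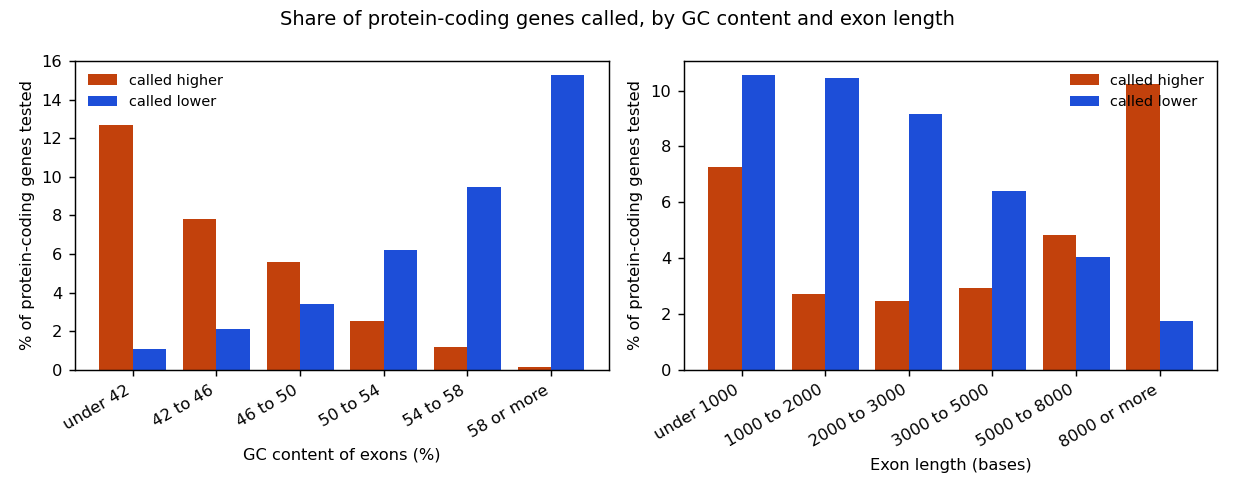
Calls by GC content and exon length. Bars give the percentage of tested protein-coding genes called higher (orange) and lower (blue) in each class. Higher calls go from 12.7% in the class of lowest GC content to 0.15% in the highest, and lower calls from 1.06% to 15.3%.

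Exercise in heterozygotes, a comparison that shares no library with the wild-type one but the same library sets, called 833 genes higher (5.34%) and 542 lower (3.48%). Of the 1511 genes called in wild type, 716 were called with the same sign in heterozygotes, which is 47.4% of the wild-type calls and 52.1% of the heterozygote calls, and 1 was called with the opposite sign. The test of the difference itself called 2 genes (0.0128%), both with the larger value in wild type, and 765 genes had an unadjusted p under 0.05 for it. DESeq2 called 8 and limma-voom 13. Aqp6, an intracellular aquaporin, was at 0, 0, 0, 0 and 0.145 CPM in regular and 9.44, 0.474, 13.7, 16.9 and 8.86 in exercised wild type. All exercised libraries lay above the regular ones. In wild type at 3 months it was at 0 to 0.348 CPM, while libraries of heterozygotes with regular activity varied: it was at 14.4, 14.1, 24.6, 0 and 5.76 CPM in them at 3 months, at 0.127, 15.03, 0.111, 10.2 and 6.01 at 6 months, and at 0 to 0.7095 in exercised heterozygotes. Rps2-ps10, a pseudogene of the ribosomal protein gene Rps2, was at 47.8, 48.8, 43.8, 47.1 and 0.764 CPM in exercised and 0.654, 1.64, 0.745, 1.02 and 0.969 in regular wild type. It was thus at 43.8 to 48.8 CPM in 4 exercised libraries and under 2 CPM in the remaining one and in every other library of the series.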

How the data were processed

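RNA of cardiac myocytes was depleted of ribosomal RNA and sequenced as strand-specific paired-end libraries, per the labels' protocols. Trim Galore, HISAT2, featureCounts and the mm10 build were used, per the submitters' processing notes; the annotation release, the strand setting and any filter are not given in the sources used here, so overlapping genes and near-identical copies are uncertain. The authors deposited unnormalised gene counts in 1 table of 52550 genes and 23 spike-in rows; the latter entered no test. Total counts, in units of 10⁶, were 12.8 to 23.1 in the 10 libraries compared.

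Counts of all 30 libraries were filtered with filterByExpr, scaled with TMM factors and tested with edgeR 4.0.16 (robust quasi-likelihood fit, limma 3.58.1, R 4.3.3; 24 residual degrees of freedom, Benjamini-Hochberg adjustment over 15587 genes, called under 0.05); the test was checked on simulated counts. CPM uses TMM-scaled library sizes, and log2 CPM values use a prior count of 2. Fold changes of the edgeR fit use its default prior count, and SE is the absolute log2 fold change over the square root of F. DESeq2 1.42.0 and limma-voom were alternatives. Exon length and GC content came from GENCODE M21, coding matches of pseudogenes from BLAST 2.17.0. The comparison, the gene lists and the naming rule were chosen with earlier results of these data known, and lists carry no test of their own. The rule named up to 12 called genes of largest change in each direction, leaving out provisional, pseudogene and mitochondrial names, whose log2 CPM averaged 2 or more, with at least 9 of 10 libraries on their own group's side, the 3 members of lowest p in every list, and 15 cardiac genes; not all are discussed, and other names were chosen after their values were seen.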

Additional observations from a re-analysis of the deposited data

Results flagged for a closer look

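Some values stood apart from the rest of their group, by a gap that is large against the group's whole range. Of 280 groups of 5 checked this way, 32 (11.4%) did so. The genes checked were chosen in part by their values and many move together, so no share expected by chance is set beside this. Most of the 32 concern exercised library 1, in which mitochondrial genes took 46.9% of counts against 20.9 to 25.8% in the other exercised libraries. There mt-Nd1 was at 61539 CPM (17158 to 21268 in the others), mt-Nd3 at 357 (91.4 to 117), mt-Nd4 at 19423 (5116 to 6747), mt-Cytb at 44026 (14377 to 17019), mt-Co2 at 3258 (1108 to 1282), mt-Co3 at 19573 (1668 to 2577) and mt-Atp6 at 2523 (485 to 703). In the same library Ppargc1a was at 451 CPM (175 to 207 in the others), Pdk4 at 537 (274 to 324), Fabp4 at 457 (104 to 136), Pecam1 at 346 (63.9 to 83.9) and Timp3 at 335 (69.7 to 83.3). It was the lowest exercised library for Ndufv1 at 355 CPM (472 to 520.3), Acadl at 257 (321 to 339), Cdh2 at 302 (392 to 420), Gja1 at 236 (457 to 551), Trdn at 169 (262 to 298) and Srsf2 at 39.6 (55.5 to 63.3).

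Among the other exercised libraries, library 5 stood apart for Jund at 87.9 CPM (53.2 to 60.4 in the rest), Plin5 at 77.0 (97.6 to 107) and Rps2-ps10 at 0.764 (43.8 to 48.8), and library 2 for Jup at 117 (182 to 210.1) and Aqp6 at 0.474 (8.86 to 16.9). Among regular libraries, library 1 stood apart for mt-Co2 at 380 CPM (245 to 267) and Hist1h1c at 69.1 (87.2 to 93.9), library 3 for its total counts of 23.1 in units of 10⁶ (18.8 to 19.6), library 4 for Igf1r at 12.9 CPM (22.9 to 26.9), and library 5 for Hist1h4c at 29.3 (15.8 to 18.5), Pdk4 at 149 (344 to 478), Pkp2 at 201 (231 to 239) and Aqp6 at 0.145 (0 in the rest).

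The effect of exercise differed between genotypes for 2 genes by the edgeR test of the difference. The wild-type log2 fold change minus that in heterozygotes was 13.03 for Aqp6 and 5.00 for Rps2-ps10 (adjusted p = 0.0172 for both). The Aqp6 value depends on edgeR's default prior count, because most libraries without the gene hold no read.

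Spike-in rows, which entered no comparison, held 6, 21, 10, 11 and 15 counts in regular libraries 1 to 5, above the 3 that a count of 0 allows, and no value in exercised libraries.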

How the results depend on the processing

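The counts of 724 higher and 787 lower genes moved with several settings. They were 400 higher without a low-count filter, 268 and 369 without regular libraries 2 and 5 together, 1406 and 1363 with limma-voom, 315 and 359 at a threshold of 0.01, and 125 and 88 with at least a 2-fold change; lower genes were 448 with length and GC trends removed and 469 without exercised libraries 1 and 5, a setting added after seeing the data. Leaving out 1 library gave 501 to 688 higher and 558 to 688 lower. Called differences from heterozygotes, 2, were 5 without the filter, 1 among protein-coding nuclear genes, 0 without regular libraries 2 and 5, 7 without exercised libraries 1 and 5, 13 with limma-voom and 8 with DESeq2, and 0 to 7 with 1 library left out.

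Replicate numbers did not pair the libraries: deviations of libraries with the same number correlated at -0.10 to 0.14, and 2 of 10 libraries correlated best with their own number. With the replicate block, 433 genes were higher and 520 lower, with 4 higher in the sarcomere, 6 lower in complexes II to V, 6 higher splicing factors and 2 higher chaperones; Nppa was at 0.33 and Acta1 at -0.14.

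For list calls, without regular libraries 2 and 5 there were 8 lower immediate early genes, 4 higher sarcomere genes, 4 lower in complexes II to V, 6 higher splicing factors and 1 higher chaperone. At the 0.01 threshold these were 10, 4, 6, 5 and 1; with at least a 2-fold change the sarcomere kept 1 call, complexes II to V 0, splicing factors 0, chaperones 0 and histones 5. With length and GC trends removed there were 10 immediate early genes and 3 splicing factors; without the filter 6 sarcomere genes; without exercised libraries 1 and 5, 4 in complexes II to V. Mitochondrial mRNAs have 0 calls in the 2 fits that leave them out of the table. With 1 library left out, sarcomere calls were 7 to 11 and chaperone calls 2 to 7. Calls over all genes were also fewer in most of these settings, as given above.

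Values of genes that were not called, or that lost their call, changed sign under some settings: with length and GC trends removed, Jund was 0.04, Ttn -0.05, Nkx2-5 0.09 and Nppa 0.06; with limma-voom, Nppa was 0.15 and Pecam1 -0.01; without exercised libraries 1 and 5, Gja1 was 0.00, Nppb 0.12 and Pecam1 -0.23; without regular libraries 2 and 5, Myh7 was 0.05 and Acta1 -0.07; and with Xist as a covariate Acta1 was -0.13. With 1 library left out, Pdk4 ranged from -0.32 to 0.00, Gja1 ranged from -0.20 to 0.04, Nppa ranged from -0.37 to 0.59, Nppb ranged from -0.46 to 0.01, Acta1 ranged from -0.46 to 0.34 and Pecam1 ranged from -0.17 to 0.80.

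Of 122 called genes among the 136 named, 90 were called in all 10 fits that left out 1 library and 54 of these also in the 10 to 12 other fits run for them, stricter thresholds not counted. The mitochondrial share differed by 7.97 to 14.5 percentage points and the ribosomal RNA share by 2.89 to 3.82 with 1 library left out, all past the threshold. Both shares count mitochondrial ribosomal RNA. Depth limits genes of a few counts, such as Aqp6.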
